A study of Mus musculus with 4 samples.

Results

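The genes described here encode the proteins of the cytosolic ribosome, measured by RNA-seq in the mouse cochlea at postnatal day 8. Members were protein coding genes whose symbol begins with Rpl or Rps followed by a digit, together with Rplp0, Rplp1, Rplp2 and Rpsa, after Rps6k kinase genes and symbols with -ps had been left out. Of 116 gene identifiers with such symbols 86 were kept, of 37239 identifiers in each library. They comprised 77 core genes (31 of the small subunit, 43 of the large subunit and 3 of the stalk), 8 paralogs, and Rps19bp1, which encodes a protein that binds a ribosomal protein and met the rule only through its symbol. Fau and Rack1 also encode ribosomal proteins and lie outside the rule on symbols. The members were chosen by name, but with earlier results of these libraries known, so gaps between libraries are given as descriptions without a test.

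Wild-type mice (Ikzf2+/+) were compared with littermates homozygous for cello (Ikzf2cello/cello), 2 libraries per genotype, all from dissected whole cochlea at postnatal day 8. Ikzf2 encodes helios, a zinc finger transcription factor of outer hair cells, and the allele is present in every cell of these mutants. No other allele or treatment is given in the labels. The labels call the libraries biological duplicates without saying whether a library holds 1 animal or a pool, so p-values measure the spread between these 4 libraries.

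The libraries held 49719984 and 42152616 counted alignments in wild-type and 42450937 and 47463910 in cello, of which 70.0% to 72.8% lay in genes. Values are CPM, counts scaled to a common number of counted alignments, and 1 read was worth 0.0201 to 0.0237 CPM. Ikzf2 stood at 22.9 and 18.5 CPM in the wild-type libraries and 17.7 and 16.9 in the cello libraries; cello is known as a point mutation, so this level does not check the labels. All 7 hair cell markers were detected, and none of the 10 marker lists had a gene at 0 in all libraries. Cello replicate 1 stood apart from cello replicate 2 in bone markers (summed 2247 against 476 CPM, higher in 6 of 6 genes) and in neutrophil markers (82.6 against 7.84 CPM, 7 of 7 genes). Wild-type replicate 1 stood apart from the other libraries in neuron markers (summed 131 CPM, against 421 to 660) and Schwann cell markers (927 CPM, against 2381 to 4362). It was also lowest in erythroid markers (634 CPM, against 1019 to 1406). Wild-type replicate 2 was highest in skeletal muscle markers (27.9 CPM, against 2.05 to 4.89). The main differences between genotypes are therefore also given without cello replicate 1, and the median of the members without either wild-type replicate in turn.

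A ribosome consists of a small subunit, which holds the mRNA and decodes it, and a large subunit, which joins amino acids and carries a stalk that recruits translation factors. Each subunit needs nearly every one of its proteins in equal number, and cells accordingly make these mRNAs in large amounts from genes without much tissue preference. Their mRNAs begin with a run of pyrimidines, the terminal oligopyrimidine (TOP) tract, through which the growth regulator mTORC1 adjusts their translation. The genes are also a frequent source of processed pseudogenes, copies made when a spliced mRNA was reverse transcribed back into the genome, so a read from one of them can match several places.

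Short stretches of 4 members show how alike such copies can be. Each pair below gives 60 bases of the coding sequence of a member and the same stretch of a copy that had its own row in the files, read from GENCODE M21 transcripts, which use GRCm38. Capitals mark a base at which the copy differs from the member. The pairs are shown because in each of them the copy, and not the member, held most of the counted reads.
Rpl23a: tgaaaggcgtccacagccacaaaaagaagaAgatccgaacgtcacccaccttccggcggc
Rpl23a-ps3: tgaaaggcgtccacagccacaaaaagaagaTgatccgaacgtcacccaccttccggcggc
Rps26: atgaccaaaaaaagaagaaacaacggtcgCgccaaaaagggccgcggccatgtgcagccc
Rps26-ps1: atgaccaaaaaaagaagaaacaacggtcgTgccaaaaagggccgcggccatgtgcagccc
Rps7: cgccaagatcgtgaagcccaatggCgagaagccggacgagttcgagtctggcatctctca
Gm9493: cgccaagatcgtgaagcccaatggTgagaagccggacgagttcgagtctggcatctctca
Rps27: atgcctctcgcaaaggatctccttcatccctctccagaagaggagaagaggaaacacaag
Rps27rt: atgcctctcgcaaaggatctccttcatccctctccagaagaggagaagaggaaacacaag
The Rpl23a stretch holds the only difference in 468 aligned bases of coding sequence. Rps26 and Rps26-ps1 differed at 2 of 348 aligned bases, and Rps7 and Gm9493 at 3 of 570. Rps27 and Rps27rt were identical over all 255 bases. In the annotation Rps27 (chr3:90212522-90213651, minus strand) has 3 exon blocks, whereas Rps27rt (chr9:114982366-114982739, minus strand) has 1. Rpl23a-ps3 (chr14:34170655-34171122, plus strand), Rps26-ps1 (chr8:107439131-107439579, minus strand) and Gm9493 (chr19:23619749-23620319, plus strand) likewise have 1 exon block each, against 4, 4 and 7 in their parent genes.

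The start sites are shown next, because the tract there is what these genes are known to share. Each line gives 30 bases around the start in RefSeq's annotation of GRCm38.p6, 10 before it and 20 from it, with the pyrimidine tract in capitals. The genes shown were taken from the 14 of 78 member promoters with a tract at that start, so they are not a typical sample.
Rpl15: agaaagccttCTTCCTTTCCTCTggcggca
Rpl38: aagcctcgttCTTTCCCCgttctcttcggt
Rps6: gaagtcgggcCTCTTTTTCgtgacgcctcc
Rps18: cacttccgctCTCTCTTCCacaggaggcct
Rps27: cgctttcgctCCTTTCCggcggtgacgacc
Rps27rt: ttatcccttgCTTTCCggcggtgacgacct
These windows lie at chr14:18270967-18270996, chr11:114668570-114668599, chr4:86857348-86857377, chr17:33955646-33955675, chr3:90213629-90213658 and chr9:114982720-114982749, with Rpl38 on the plus strand and the others on the minus strand. Promoters were matched for 66 of the 86 members, 78 promoters in all. A tract of a C followed by at least 4 pyrimidines began at the annotated start in 17.9% of them and in 2.51% of all 32851 promoters, and within 5 bases of it in 41.0% and 18.3%. Of the motifs searched on both strands over 300 bases, CCGGAAG, the form bound by ETS factors, was present in 34.6% of the member promoters and 8.86% of all. AAGATGGC, the core bound by YY1, was present in 10.3% and 2.75%, and TATAAA in 8.97% and 13.6%. The 3 strings were counted separately, and a promoter can hold several. A match is a string of letters in this window and does not show that a factor binds there.

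How many reads a member was credited with went with how much of its sequence is shared. Of the 86 members, 77 had at least 1 annotated copy, meaning a transcript of another gene that matched at least 80% of the coding sequence at 90% identity or more, and 9 had none. The median number was 8 copies and the highest 77, for Rpl21. As a finer measure, the share of a member's coding 50-mers (stretches of 50 bases) that also occur in a transcript of another gene was computed. Between 13.0% and 14.6% of all counted alignments in the 4 libraries were set aside as not unique.

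The 11 core genes with under 50% of their 50-mers shared had a median level of 172 CPM per kb of exon. Exon length was the union of all annotated exons of a gene, which for Rpl12 came to 3598 bases against 498 of coding sequence. Levels per kb therefore also depend on how much exon is annotated. The 41 genes with 50% to under 100% shared had a median of 7.91 CPM per kb, and the 25 with every 50-mer shared a median of 2.54 CPM per kb. Over the 77 core genes Spearman's rho between level per kb and share was -0.63, and between level per kb and number of copies -0.38. This is a description across genes of the same 4 libraries, which are not independent replicates. Counted levels per kb among the core genes ran from 0.316 for Rpl29 to 350.1 for Rplp1. True mRNA levels and reads lost to copies cannot be told apart in these files, and the part of annotated exon length was not tested.

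**Figure D1:**
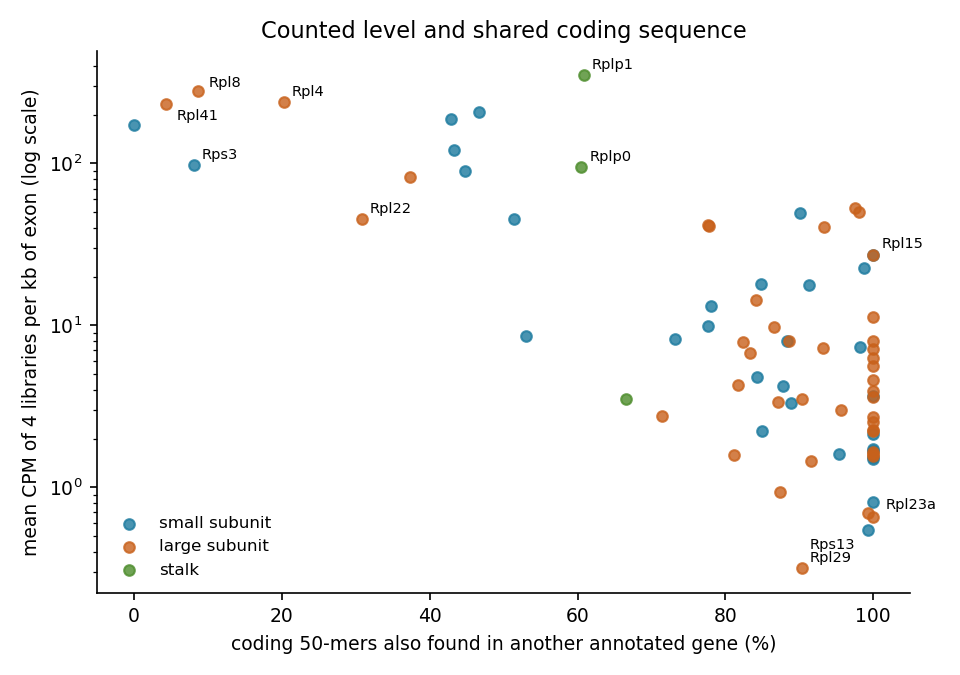
Mean CPM of the 4 libraries per kb of exon (log scale) against the percentage of coding 50-mers found in transcripts of another gene, for 77 core genes, with points coloured by subunit. The genes under 50% lie at 45.5 CPM per kb or above, and those at 100% reach at most 27.4.

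At the top of the scale stood Rplp1, an acidic protein of the stalk, at 182 and 175 CPM in the wild-type libraries and 138 and 204 in the cello libraries. It was followed in level per kb by Rps27rt, by Rpl8, a protein close to the peptidyl transferase centre, by Rpl4, which lines the exit tunnel of the nascent chain, and by Rpl41, which encodes one of the shortest proteins known. Rpl8 stood at 419 and 402 CPM in the wild-type libraries and 311 and 382 in the cello libraries. Rpl4 had the highest CPM of all members, at 529.6 and 510.1 in the wild-type libraries and 383 and 502 in the cello libraries. In both genes the cello libraries lay below the wild-type ones, cello replicate 1 further than replicate 2. Rpl8 and Rpl41 had no annotated copy and Rpl4 had 1.

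At the bottom, 7 members did not reach 1 CPM in 2 libraries and were not tested. They were the core genes Rpl24, Rpl29, Rpl23a and Rps29 and the paralogs Rpl39l, Rpl3l and Rpl10l. Rpl24, of the large subunit and mutated in the belly spot and tail mouse, was counted at 0.603 and 0.712 CPM in the wild-type libraries and 0.754 and 0.780 in the cello libraries. Of its 50-mers, 99.3% occur elsewhere. Rpl10l, a paralog of Rpl10 known from testis, had 0 reads in every library, which allows up to 0.0603 to 0.0712 CPM (3 reads, counting error only). Rpl39l, a paralog of Rpl39, stood at 0.261 to 0.569 CPM. Rpl3l, a paralog of Rpl3 known from striated muscle, stood at 0.0712 to 0.105 CPM, and shared no 50-mer with another gene.

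Several copies were credited with more reads than the member they resemble. Of 985 distinct annotated copies, 64 were matched to a row in the files, of which 62 were not members themselves. Rpl23a was counted at 0.563 and 0.380 CPM in the wild-type libraries and 0.518 and 0.758 in the cello libraries, while the pseudogene Rpl23a-ps3 was counted at 80.3 and 73.9 in the wild-type libraries and 53.2 and 76.8 in the cello libraries. Rps27, a zinc finger protein of the small subunit, was counted at 1.79 and 1.42 CPM in the wild-type libraries and 1.91 and 2.04 in the cello libraries. Its intronless twin Rps27rt had 139 and 111 CPM in the wild-type libraries and 94.3 and 153 in the cello libraries. Nearly all reads of the pair were counted at the copy, although the coding letters printed above are the same in both.

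The same held for several other members, named after their values were seen. Rps26 stood at 10.5 to 14.2 CPM and Rps26-ps1 at 110.1 to 166. Rps7 stood at 2.57 to 4.10 CPM and Gm9493 at 22.0 to 36.0. Rpl35 stood at 1.44 to 2.43 CPM, whereas Gm2000, a copy annotated as protein coding, stood at 85.4 to 128. For Rplp0, the base of the stalk, the row of the pseudogene Gm8730 (253 to 367 CPM) exceeded that of the gene (126 to 187 CPM). In contrast Rpl15 stood above its copy Gm10020, at 58.1 to 72.2 against 28.7 to 42.9 CPM. In each of these copies cello replicate 1 was the lowest of the 4 libraries.

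**Figure D2:**
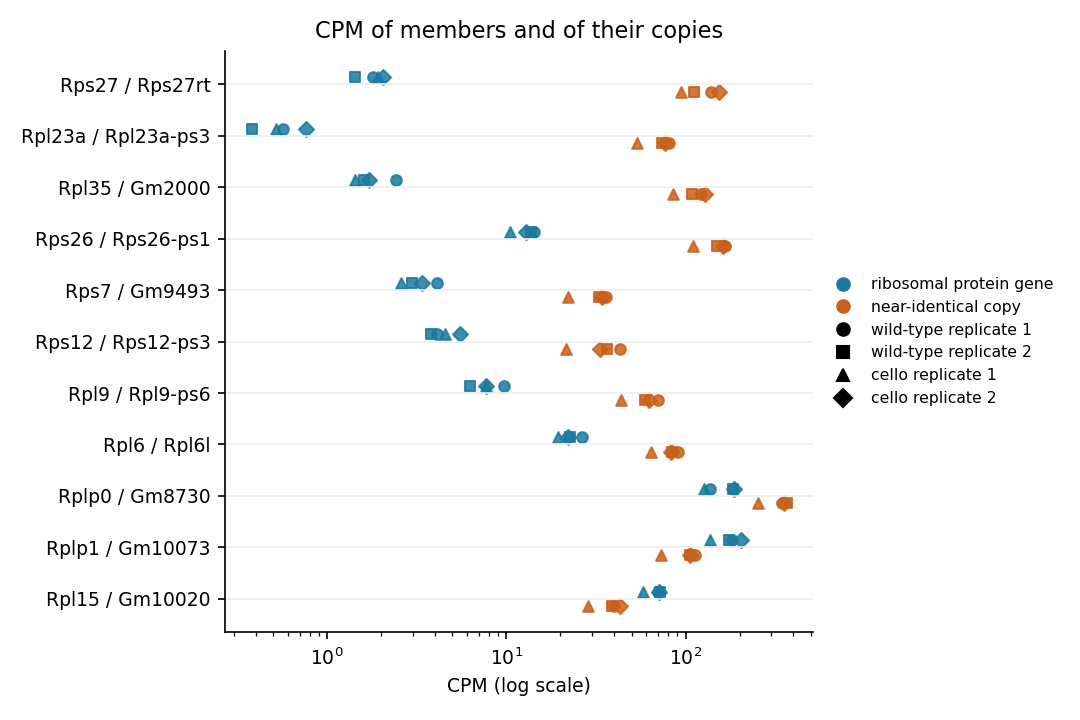
CPM (log scale) of 11 members and of a near-identical copy of each, with 1 symbol shape per library. For 9 of the 11 members every library of the copy lies to the right of every library of the member; Rplp1 and Rpl15 are the exceptions.

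The comparison of genotypes asked whether mutant helios goes with a different level of ribosomal protein transcripts. The median log2 difference of the 79 tested members, cello minus wild-type, was -0.13, against -0.03 over all 14721 genes tested. Of the members 60 lay below 0 and 19 above, while 56.6% of all genes lay below 0. In limma 0 of the 79 members passed an adjusted p of 0.05, beside 0 of all genes (0.0%). At an unadjusted p of 0.05, limma passed 0 members and 10.9% of all genes, and edgeR 0 members and 9.94%. DESeq2 called 1.32% of all genes after adjustment and 9.29% before it, and 0 members either way. Without cello replicate 1 the median was 0.05, with 30 members below 0 and 49 above, so the sign of the median rests on that library. Without wild-type replicate 1 it was -0.05, and without wild-type replicate 2 it was -0.20. Without cello replicate 2 it was -0.32, and limma gave 32 members an unadjusted p under 0.05 with a lower level, against 10.9% of all genes.

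By subunit, the median log2 difference was -0.15 in 30 small subunit genes, -0.12 in 40 large subunit genes and -0.05 in the 3 stalk genes. Without cello replicate 1 these medians were 0.04, 0.04 and 0.19. Rpl7a, of the large subunit, was among those with the lowest differences. It stood at 81.4 and 77.4 CPM in the wild-type libraries and 54.6 and 73.2 in the cello libraries, so the genotypes did not overlap. The log2 difference was -0.33 (SE 0.15), with an unadjusted p of 0.080 and an adjusted p of 0.49 in limma. Rpl14 differed by -0.29 and Rps9 by -0.28, and neither passed. Without cello replicate 1 the differences were -0.12 for Rpl7a, -0.05 for Rpl14 and -0.04 for Rps9. In 13 members both cello libraries lay below both wild-type libraries, against 28.7% of all genes, and in 4 members above, against 16.9%. Those 4 were Rpl13, Rps12, Rps13 and Rps27, and each had its genotypes separated by less than 1 CPM.

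For Rps12 the direction depended on which row was read. The gene stood at 4.10 and 3.80 CPM in the wild-type libraries and 4.55 and 5.52 in the cello libraries, a log2 difference of 0.31 (limma, unadjusted p = 0.13). Rps12-ps3, identical to it over 86.6% of the coding sequence, stood at 42.9 and 36.2 CPM in the wild-type libraries and 21.5 and 33.1 in the cello libraries. Summed over both rows the log2 difference was -0.44 (limma, unadjusted p = 0.078). The sums were 47.0 and 40.0 CPM in the wild-type libraries and 26.1 and 38.7 in the cello libraries, so the fall lay mostly in cello replicate 1. The sum was not fitted without that library. For Rps27 the value moved from 0.24 to -0.04 when it was summed with Rps27rt. Neither gene passed the test on either reading.

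Members with known roles outside routine translation were among those that did not pass. Rpl38, whose mutation in the tail-short mouse affects the axial skeleton and the middle ear, stood at 2.53 and 1.45 CPM in the wild-type libraries and 1.53 and 2.36 in the cello libraries, a log2 difference of -0.01 with overlapping genotypes. Rps19, the gene most often mutated in Diamond-Blackfan anaemia, stood at 45.8 and 39.2 CPM in the wild-type libraries and 30.8 and 45.0 in the cello libraries, a log2 difference of -0.18. Rpl5 and Rpl11, which together bind Mdm2 when assembly of the large subunit fails, had log2 differences of 0.14 and -0.14. Rpsa, the laminin receptor precursor of the small subunit, differed by -0.27, and Rps6, the substrate of the S6 kinases, by -0.07. The X-linked Rps4x and Rpl10 differed by -0.22 and -0.04. Rplp0, Rplp1 and Rplp2 of the stalk differed by -0.05, -0.09 and 0.01, and Rpl41 by -0.13. All 5 tested paralogs among the members lay below 0, where 56.6% of all genes did. They ran from -0.15 in Rpl22l1 to -0.05 in Rps27rt, with Rpl7l1, Rpl36al and Rps27l between them. Rps4l, a listed paralog that is not a member, differed by 0.09. Leaving out cello replicate 1 turned the sign of 16 of 43 members followed by name. Among those of this paragraph with a negative difference, Rps19 (0.09), Rpl11 (0.04), Rps6 (0.17), Rplp0 (0.24), Rplp1 (0.19), Rpl41 (0.13) and Rpl38 (0.23) then lay above 0, and Rpsa stood at 0.002. Of the paralogs Rpl22l1 (0.16), Rps27rt (0.30) and Rps27l (0.16) then lay above 0, and Rps27rt stood at 0.03 in edgeR and 0.02 in DESeq2.

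A larger contrast ran within the cello genotype. Summed over all members, the ribosomal protein genes took 5189 and 4896 CPM in the wild-type libraries and 3766 and 5225 in the cello libraries. That is 0.519% and 0.490% of counted alignments in wild-type and 0.377% and 0.523% in cello. Cello replicate 1 was the lowest library, whereas cello replicate 2 was the highest. The wild-type mean was 5043 ± 207 CPM and the cello mean 4495 ± 1032 CPM (SD, n = 2). Their ratio was 0.891, and the difference was smaller than the spread within cello. The ratio of cello replicate 1 to replicate 2 was 0.721, against 1.06 for the wild-type replicates. In a whole cochlea, fewer cells of a type and less RNA per cell cannot be told apart.

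Cello replicate 1 was the lowest of the 4 libraries in 57 of the 79 tested members, compared with 35.9% of all genes. It lay below cello replicate 2 in 68 members, where 55.5% of all genes did. Wild-type replicate 1 lay above wild-type replicate 2 in 70 members, where 46.5% of all genes did. The median gap between replicates, replicate 1 minus replicate 2 on the log2(CPM + 0.5) scale, was -0.36 in cello and 0.17 in wild-type, while over all genes it was -0.03 and -0.01. Most gaps were modest in size. Cello replicate 1 was over 1.5-fold below replicate 2 in 10 members, against 4.5% of all genes, and over 1.5-fold above it only in Rps3a1, against 5.35%. Wild-type replicate 1 was over 1.5-fold above replicate 2 in 7 members, against 2.09% of all genes, and over 1.5-fold below it in Rps2 and Rps18, against 5.01%. After Rps2 and Rps18, the widest wild-type gaps were those of the large subunit genes Rpl17 (0.95), Rpl12 (0.69) and Rpl21 (0.66), each with every 50-mer shared. After Rps2, Rps3a1 and Rps18, the widest cello gap was that of Rps27rt (-0.70).

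**Figure D3:**
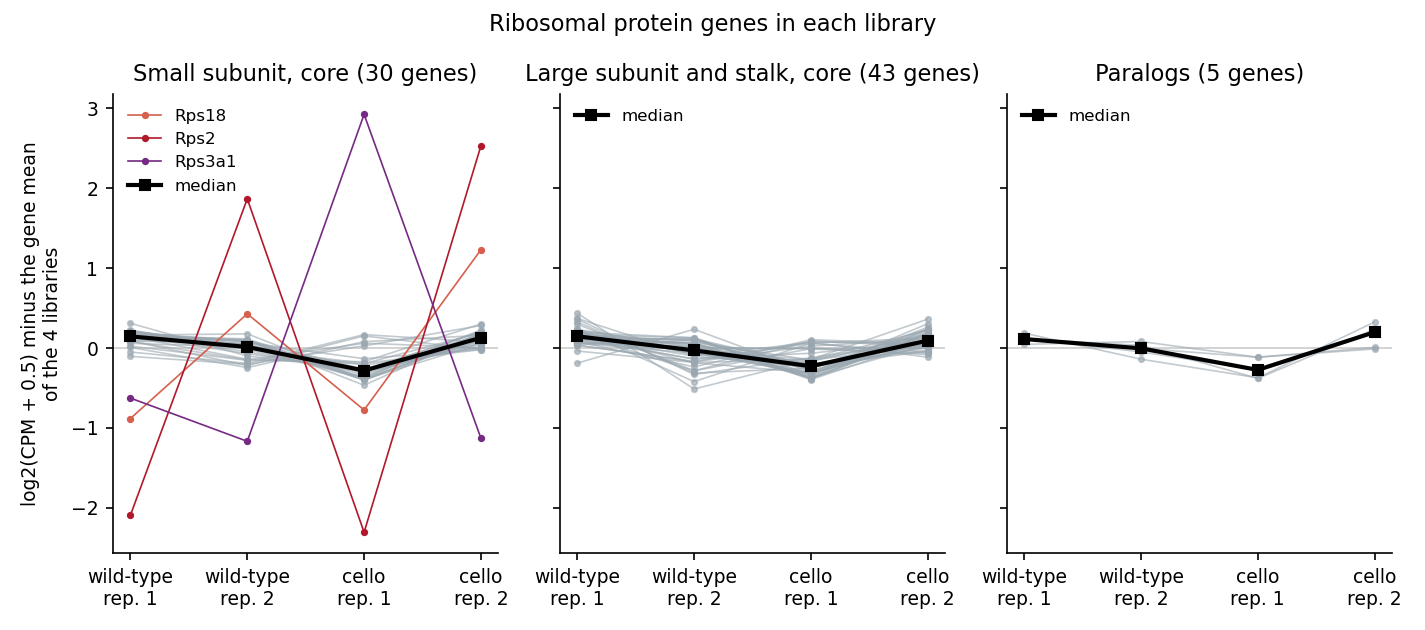
Deviation of each tested member from its mean over the 4 libraries, log2(CPM + 0.5), for 30 core genes of the small subunit, 43 of the large subunit and stalk, and 5 paralogs. Grey lines join the values of a gene and black squares are the median of the panel, which is lowest in cello replicate 1; Rps2, Rps18 and Rps3a1 leave the band of the others.

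The lower level in cello replicate 1 was most uniform among members with many reads. All 25 members with a mean of at least 50 CPM were lowest in cello replicate 1, with a median gap within cello of -0.52. Among the 30 tested members under 10 CPM, the median gap was -0.18, and 13 were lowest there, as were 35.9% of all genes. Rps3, a small subunit protein near the mRNA entry, with 8.05% of its 50-mers shared, illustrates the first set. It stood at 481 and 460.2 CPM in the wild-type libraries and 327 and 483 in the cello libraries, so that cello replicate 2 was the highest library and cello replicate 1 the lowest. Of the 11 core genes with under 50% of 50-mers shared, 11 were lowest in cello replicate 1. Each of these 11 had a mean of at least 73.0 CPM, so they also belong to the first set. Of the 23 tested genes with every 50-mer shared, 9 were lowest there, against 35.9% of all genes. Over 73 core genes, Spearman's rho between the gap within cello and log2 mean CPM was -0.62, as a description across genes of the same libraries.

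Rps2, Rps18 and Rps3a1 departed from this pattern. Rps2 (ENSMUSG00000044533, chr17:24718116-24721929 of GRCm38, plus strand) encodes a protein at the mRNA entry channel of the small subunit. It was counted at 1.83 and 35.8 CPM in the wild-type libraries and 1.51 and 57.0 in the cello libraries, from 91, 1509, 64 and 2706 reads. Replicate 2 was thus 19.6 times replicate 1 in wild-type and 37.8 times in cello. Its log2 difference between genotypes was 0.22 (SE 1.95), with an adjusted p of 0.97 in limma, far inside the spread of the replicates. No other gene of the 14721 had a gap at least that large in the same direction in both genotypes. The 0.00679% of genes that reached it is Rps2 itself, which was named for its gap.

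Rps18 (ENSMUSG00000008668, chr17:33951999-33956001, minus strand), in the head of the small subunit, followed the same order at smaller size. It stood at 4.40 and 11.7 CPM in the wild-type libraries and 4.78 and 20.7 in the cello libraries. A gap at least that large in both genotypes was found in 3 genes (0.0204%), which included Rps2 and Rps18. Rps3a1 (ENSMUSG00000028081, chr3:86137940-86142702, minus strand), also of the small subunit, was high in 1 library. It stood at 1.85 and 1.11 CPM in the wild-type libraries and 27.1 and 1.16 in the cello libraries, from 92, 47, 1150 and 55 reads. Cello replicate 1 was 23.4 times cello replicate 2. On the log2(CPM + 0.5) scale no other tested gene was higher there by as much, so the 0.00679% of genes that reached this gap is Rps3a1 itself. The log2 difference of 1.80 (SE 1.28; limma, unadjusted p = 0.22) therefore rests on cello replicate 1, and without it was -0.23 (limma, unadjusted p = 0.54).

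Copies of these genes were read for the same order. Gm5786, 97.4% identical to Rps2, stood at 0.141 and 0.925 CPM in the wild-type libraries and 0.165 and 1.24 in the cello libraries, again higher in each replicate 2. Rps2-ps6, 95.1% identical, stood at 2.33 and 2.66 CPM in the wild-type libraries and 2.03 and 2.13 in the cello libraries, and did not show it. Rps18-ps3 stood at 0.282 and 0.569 CPM in the wild-type libraries and 0.283 and 0.590 in the cello libraries. None of the 7 annotated copies of Rps3a1 was matched to a row. The part of mapping in these gaps was not tested.

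**Figure D4:**
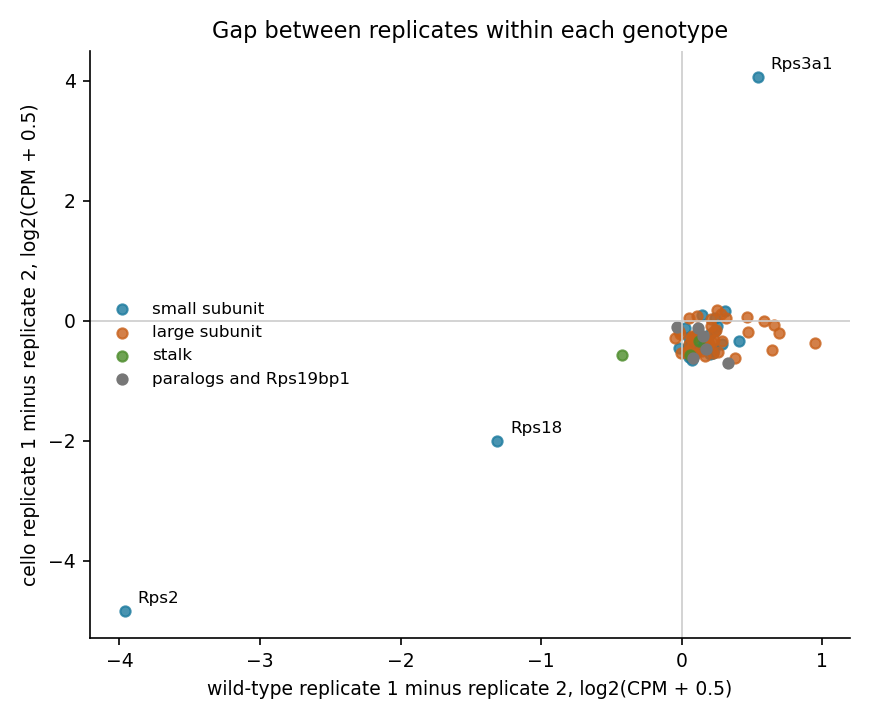
Replicate 1 minus replicate 2 on the log2(CPM + 0.5) scale, within wild-type (x axis) and within cello (y axis), for the 79 tested members. Rps2 lies at -3.96 and -4.84, Rps18 at -1.31 and -2.01 and Rps3a1 at 0.54 and 4.06, whereas the others lie between -0.42 and 0.95 in wild-type and between -0.70 and 0.18 in cello.

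Cello replicate 1 also had the lowest sum without these genes. Without Rps2, Rps18 and Rps3a1 the sums were 5181 and 4848 CPM in the wild-type libraries and 3732 and 5146 in the cello libraries. The copies alone had 1149 and 1098 CPM in the wild-type libraries and 789 and 1128 in the cello libraries, so they too were lowest in cello replicate 1. Haemoglobin and mitochondrially encoded transcripts can displace others in a relative unit. Over reads in genes alone, the sums were 7311 and 6723 CPM in the wild-type libraries and 5308 and 7464 in the cello libraries. That total without haemoglobin and mitochondrial genes gave 7541 and 6943 CPM in wild-type and 5485 and 7725 in cello. Most of the rise in these sums came from dropping alignments outside genes, and the order of the libraries stayed the same.

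Other genes of translation showed the gap to different degrees. Among 15 translation factors and other genes with TOP mRNAs, the median log2 difference between genotypes was -0.22. Of these genes 13 were below 0, against 56.6% of all genes, and the median gap within cello was -0.31. Without cello replicate 1 the median log2 difference was -0.04. Eef1g, a subunit of the elongation factor that delivers tRNA, stood at 57.7 and 59.1 CPM in the wild-type libraries and 44.0 and 48.3 in the cello libraries. Both cello libraries lay below wild-type, with a log2 difference of -0.34 (SE 0.08; limma, unadjusted p = 0.0095, adjusted p = 0.42). Pabpc1, the poly(A) binding protein, differed by -0.21 and Eif3f, an initiation factor subunit, by -0.31. Without cello replicate 1 the differences were -0.27 for Eef1g, -0.28 for Pabpc1 and -0.12 for Eif3f. Rack1, a scaffold protein on the small subunit, stood at 559.9 and 532 CPM in the wild-type libraries and 378 and 529.8 in the cello libraries, lowest in cello replicate 1 as most members were. Its log2 difference was -0.28, and -0.04 without cello replicate 1. Fau, which encodes a ribosomal protein fused to a ubiquitin-like protein, differed by 0.06.

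The 29 genes of RNA polymerase I and ribosome assembly had a median log2 difference of -0.04 and a median gap within cello of -0.09. Their lowest p-values belonged to Nop2 (-0.28), Bop1 (-0.23) and Polr1c (-0.23), a pair of assembly factors and a polymerase subunit. The 12 tested regulators of this programme, with Mtor (-0.17), Tsc2 (-0.13) and Eif4ebp2 (-0.15) at the lowest p-values, had medians of -0.04 and -0.05. Of the 76 tested genes of the mitochondrial ribosome, 61 were below 0, against 56.6% of all genes, with a median of -0.09. Cello replicate 1 was lower than replicate 2 in 71 of them, against 55.5% of all genes, with a median gap of -0.16. In each of these lists limma called 0 genes. At an unadjusted p of 0.05 limma passed 1 of the TOP factors, 2 of the assembly genes, 0 of the regulators and 3 of the mitochondrial ribosomal genes, all lower in cello. Over all genes tested the share was 10.9%, above that of each of these lists.

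**Figure D5:**
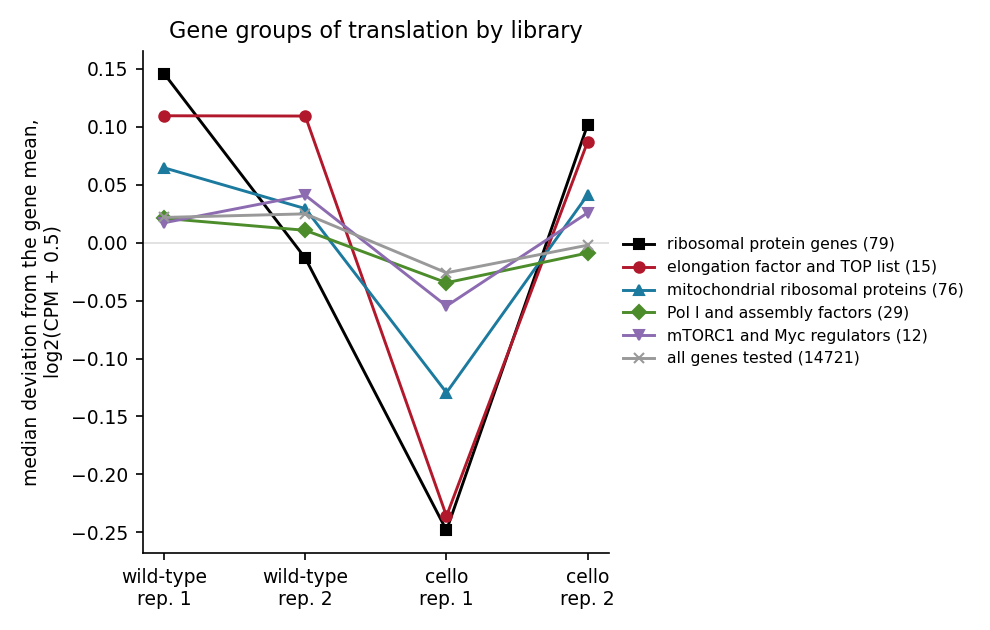
Median deviation from the gene mean, log2(CPM + 0.5), in each library for 5 groups of translation genes and for all genes tested, with the number of genes in brackets. All groups are lowest in cello replicate 1, to different degrees. Ribosomal protein genes stand at 0.15 and -0.01 in wild-type and -0.25 and 0.10 in cello. In cello replicate 1 the TOP factors stand at -0.24, mitochondrial ribosomal genes at -0.13, regulators at -0.05 and assembly genes at -0.03. All genes tested stay between -0.03 and 0.02.

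Cell type markers moved between the libraries as well. Bone markers summed to 905 and 949 CPM in wild-type and to 2247 and 476 CPM in cello, the order opposite to that of the ribosomal protein genes within cello. Fibrocyte markers summed to 1832 and 1602 CPM in the wild-type libraries and 3430 and 1464 in the cello libraries, with 2 of 4 genes higher in cello replicate 1. Neutrophil markers summed to 19.4 and 40.4 CPM in the wild-type libraries and 82.6 and 7.84 in the cello libraries. The 5 epithelial markers, all lower in cello replicate 1 than in replicate 2, summed to 824 and 891 CPM in the wild-type libraries and 657 and 707 in the cello libraries. The cycling markers, a sign of dividing cells, summed to 38.9 and 56.0 CPM in the wild-type libraries and 69.9 and 49.3 in the cello libraries. Neuron markers summed to 131 and 421 CPM in the wild-type libraries and 542 and 660 in the cello libraries, and Schwann cell markers to 927 and 2381 in wild-type against 3555 and 4362. Their median log2 differences were 1.44 and 1.16, and both lists were lowest in wild-type replicate 1, where the members' median deviation was highest. The part of these markers in the ribosomal protein levels of cello replicate 1 and wild-type replicate 1 was not tested.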

How the data were processed

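RNA was taken from dissected whole cochlea and prepared with a TruSeq kit, per the labels. The submitters' processing notes name TopHat and GRCm38. How reads were counted, and whether strand was used, is not given in the sources used here, so overlapping and near-identical genes are uncertain. The authors deposited CPM whose total includes 5 entries without a gene name, which were kept out of tests; 70.0% to 72.8% of alignments were in genes. Every CPM was a whole multiple of 1 read in 100% of values (tolerance 0.001), so whole reads were recovered.

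Of 37239 identifiers, 36588 matched GENCODE M21. The 14721 genes that reached 1 CPM in 2 or more of the 4 libraries were fitted by genotype in limma (version 3.58.1, under R 4.3.3) on log2(CPM + 0.5), a scale that understates changes of low genes. The fit used a mean-variance trend and two-sided tests; p-values were adjusted by Benjamini-Hochberg over all of these genes, with 0.05 as threshold. EdgeR 4.0.16 (quasi-likelihood) and DESeq2 1.42.0 were run on the recovered reads. The smallest p that exact permutation allows with 2 libraries per genotype is 0.333, so it was not used. Copies were found with blastn 2.17.0 (at least 90% identity over 80% of the coding sequence); a copy was summed with its member where the match covered at least 40% of the copy gene. In simulated data of the cello against wild-type comparison (14721 genes), limma recovered 76% of 100 genes changed 2-fold and 100% of 100 changed 4-fold, with 17 false among 193 calls. The changed genes were drawn from those with a mean CPM of at least 5, which 64 of the 79 tested members reached. Each gene was simulated on its own, without the gaps between libraries that many genes share here, so these rates may not hold for the members. Python 3.11.15 with pandas 2.3.3 made the tables, and matplotlib 3.10.9 the figures.

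The members and lists were chosen with earlier results of these data known. Named by rule were the 5 highest and 5 lowest members per kb, the 5 largest differences in each direction, the 5 largest replicate gaps per genotype, the paralogs, a set of 16 genes of known roles, up to 3 genes per other list by p, and Ikzf2. Some genes that this rule names are not reported here. Rps26, Rps7, Rpl35, Rpl15, Rpl13, Rps29, Rps23, Rpl9, Rpl6, Rps3 and Rpl22 were named in the text or figures after their values were seen. Alternatives were other pseudocounts, filters and scalings, no trend, robust moderation, the replicate block, both count tests, leaving out each library, and, chosen after seeing the data, sums with copies and sums without Rps2, Rps18 and Rps3a1.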

Additional observations from a re-analysis of the deposited data

How the results depend on the processing

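The count of members called was 0 in limma under every alternative run, in edgeR and in DESeq2. The count over all genes was 0 in limma, 195 in DESeq2 (115 higher, 80 lower) and between 0 and 90 when 1 library was left out; the 90 were called without wild-type replicate 2, all higher in cello. The median log2 difference of the members stayed between -0.14 and -0.08 under the scalings, filters, pseudocounts and count tests run, was -0.18 over members with no annotated copy, -0.24 over core genes with under 50% of 50-mers shared, -0.03 over those with all shared, and was -0.09 after TMM rescaling, where the median of all genes was 0.01. Leaving out 1 library gave -0.32 to 0.05, above 0 only without cello replicate 1; the lone library left is then taken to vary like the other genotype. Under TMM rescaling 55 members were below 0 and 24 above. Equal replicate numbers are only a shared number, with a correlation of deviations of 0.13; with the replicate block limma called 0 members and 0 genes, and 1902 genes had an unadjusted p under 0.05 against 1603 without the block. Summed CPM of the members in wild-type and then cello were 7311, 6723, 5308 and 7464 over reads in genes. Over those reads without haemoglobin and mitochondrial genes they were 7541, 6943, 5485 and 7725. With copies added, which was chosen after seeing the data, they were 6337, 5995, 4555 and 6353. These sums rise because the denominator shrinks or rows are added, and cello replicate 1 stayed lowest in each. Over reads in genes the median gap was -0.38 in cello and 0.20 in wild-type. The simulated data held changes of 2-fold and 4-fold only, so how small a change of a member could be detected was not tested.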

Other observations

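Copies of members also lie inside larger genes, whose rows therefore cannot be read as the host gene alone. Wdr89, a WD repeat gene, holds a stretch 99.4% identical to the coding sequence of Rplp2 that makes up 10.9% of its exons. Its row stood at 235 and 222 CPM in the wild-type libraries and 166 and 221 in the cello libraries, whereas Rplp2, a stalk protein, stood at 6.38 to 8.24 CPM. Gm5148 holds a stretch identical to 92.1% of the coding sequence of Rps23, a protein of the decoding centre, and stood at 228 and 203 CPM in the wild-type libraries and 151 and 218 in the cello libraries. Rps23 itself stood at 1.60 to 2.31 CPM. In both host rows cello replicate 1 was the lowest library, as in most members. Other host rows did not all share this order. Uimc1, with a stretch 99.8% identical to Rpl29, was highest in cello replicate 1, at 28.5 CPM against 23.2 to 25.7. Kif15, with a stretch 93.0% identical to Rpl39, was also highest there, at 5.61 CPM against 2.92 to 4.02. These rows were left out of the sums with copies.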
